A study of Arabidopsis thaliana with 12 samples.

Results

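The pentatricopeptide repeat genes AT5G39980, AT2G17670 and AT4G21170 of Arabidopsis thaliana were followed in plants grown at normal and at high iron. They are 3 of the 691 genes that had a probe of their own on the array, and each was read by 1 probe. The probes were those annotated with exactly 1 gene, and the loci were chosen by their differences between high iron and control samples on these same arrays, which run in opposite directions. Those differences between the groups are therefore given as a description and without a test.

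Total RNA was measured on arrays from wild-type plants of ecotype Columbia 0, the common laboratory strain. Of the 12 samples, 6 came from plants at normal iron (control, titled H2O) and 6 from plants at high iron (titled pFe), a treatment the labels describe as oxidative stress. The labels give no tissue, age, iron dose or duration. Each sample gave 1 linear intensity for each of 3439 probes, between 0 and an upper limit of 100.

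Pentatricopeptide repeat proteins are a large family in land plants. They are encoded in the nucleus and most act in plastids or mitochondria, where a row of helical repeats lets each protein bind particular organelle transcripts. Bound proteins of this family edit, splice, cleave or stabilise organelle RNA, and plants that lack one of them often show defects in photosynthesis or respiration. The annotation used here gives no name beyond the locus for the 3 genes, so no target transcript or compartment is assigned to any of them.

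Array-wide facts bear on how these values can be read. The median intensity of an array lay between 0.555 and 0.618 in control and between 0.352 and 0.446 in high iron samples, so differences between the groups depend on the scaling. Quantile normalization, which gives all arrays the same distribution, is used unless another scaling is named. In both groups the samples pair up by number into 3 sets, 1 with 2, 3 with 4 and 5 with 6. Across probes, which are not independent replicates, deviations from the mean of a group had correlations of 0.56 to 0.82 inside sets and of -0.70 to -0.25 between them. Centring on the group mean by itself makes correlations between sets negative on average, so nothing is read from their sign. Nothing in the labels says that the samples came from separate plants, so p-values cover only the spread among these samples, and that spread may be technical. Should the samples inside sets be repeat measurements, there are 3 replicates per group and p-values over 6 are too small. Leaf and root were checked through marker lists. The 6 photosynthesis genes of the green tissue list were taken from genes known to be on the array, so that they have probes is no check. Their control means ran from -0.86 for PRK to 4.70 for PSBW on the log2 scale, with none at the floor set on dim values, and none of the root list had a probe of its own. No tissue is read from these levels. In bulk RNA, fewer cells that express a gene and less RNA per cell cannot be told apart.

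AT5G39980 was lower at high iron, with a wide spread between samples. Its deposited intensity was 0.898 at the lowest, 1.17 at the median and 1.47 at the highest in the 6 control samples. The 6 high iron samples had 0.224, 0.360 and 0.821 for the same measures. As deposited, the groups did not overlap, on a scale where 46.6% of all probes were lower at high iron (limma, adjusted p under 0.05). The share of all probes without overlap was not counted on that scale. After quantile normalization the level was 0.12 ± 0.33 in control and -1.03 ± 0.54 in high iron samples (log2, SD, n = 6 per group). The difference was -1.15 (SE 0.25), or 0.451 times the control level. On this scale high iron sample 6, at -0.21, lay inside the control range, which ran from -0.34 to 0.55, so the groups overlapped in 1 sample. The high iron samples 5 and 6 were the brightest of their group, as were samples 5 and 6 among the controls.

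AT2G17670 was also lower at high iron, and its groups did not overlap. Its deposited intensity was 0.558, 0.727 and 0.893 at the lowest, median and highest in control samples. In high iron samples it was 0.153, 0.224 and 0.352. The quantile-normalized level was -0.70 ± 0.39 in control and -1.73 ± 0.24 in high iron samples. The difference was -1.04 (SE 0.18), or 0.488 times the control level. No sample of this or the other 2 genes lay at the floor set on dim values, -3.24 on the log2 scale. The control spread followed the sets, with samples 1 and 2 near -1.17 and samples 3 and 4 near -0.31.

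AT4G21170 was higher at high iron. Its deposited intensity was 0.902, 0.984 and 1.10 at the lowest, median and highest in control samples, and 1.23, 1.34 and 1.64 in high iron samples. The quantile-normalized level was -0.14 ± 0.11 in control and 0.51 ± 0.13 in high iron samples, with no overlap between the groups. The difference was 0.65 (SE 0.07), or 1.57 times the control level. Its SD was the smallest of the 3 genes in both groups.

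**Figure D1:**
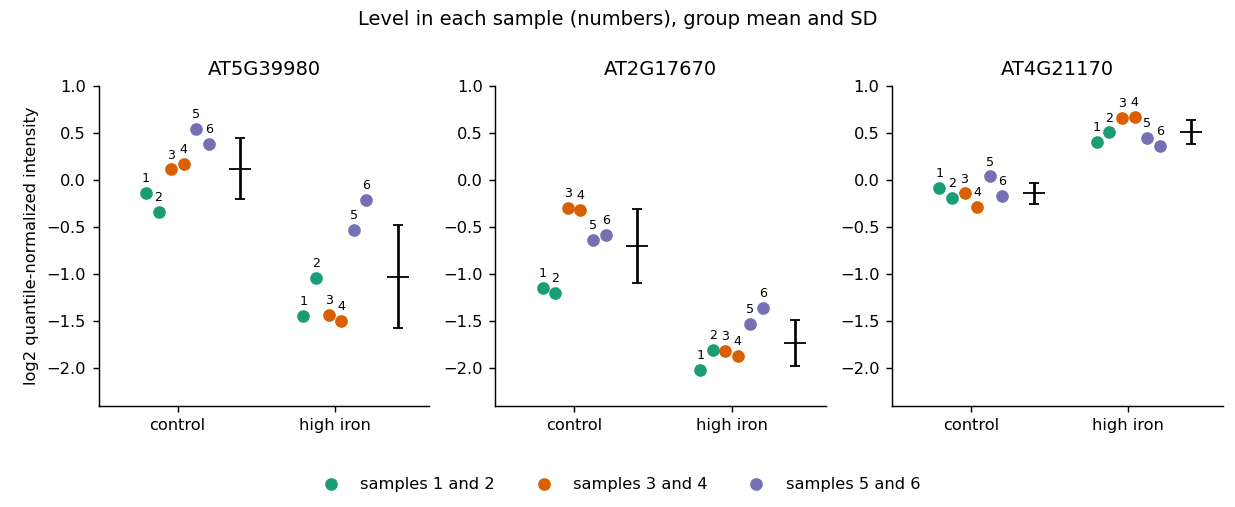
Level of each gene in each of the 12 samples, as log2 quantile-normalized intensity, with the sample number above each point, colours for the sets of samples, and a cross bar for the group mean with its SD (n = 6). AT5G39980 and AT2G17670 lie lower at high iron, with high iron sample 6 of AT5G39980 inside the control range, and AT4G21170 lies higher in all 6 high iron samples.

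Of all 3439 probes, 33.4% differed between the groups in limma over 12 samples at an adjusted p under 0.05, 18.2% higher and 15.2% lower at high iron. For 18.1% of the probes the quantile-normalized values of the groups did not overlap, which held for AT2G17670 and AT4G21170. These shares are the background for the 3 genes, and nothing is read from the members' own places in it because the same contrast chose them. By size, AT5G39980 had the 8th and AT2G17670 the 15th lowest difference among the 691 genes, and AT4G21170 had the 68th highest.

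The place of a probe in the order of intensities on its own array does not depend on how arrays are scaled. By this measure AT5G39980 stood at 84.9% ± 5.9 of the probes in control and at 50.1% ± 19.7 in high iron samples (SD, n = 6). AT2G17670 stood at 62.2% ± 14.8 and 27.0% ± 6.6. AT4G21170 stood at 80.6% ± 2.6 and 90.8% ± 1.3. In each of the 6 sample numbers, AT5G39980 and AT2G17670 ranked lower and AT4G21170 ranked higher in the high iron sample. The smallest shift was that of AT4G21170 in number 5, by 5.76 percentage points, and the largest that of AT5G39980 in number 4, which fell by 53.7 percentage points.

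**Figure D2:**
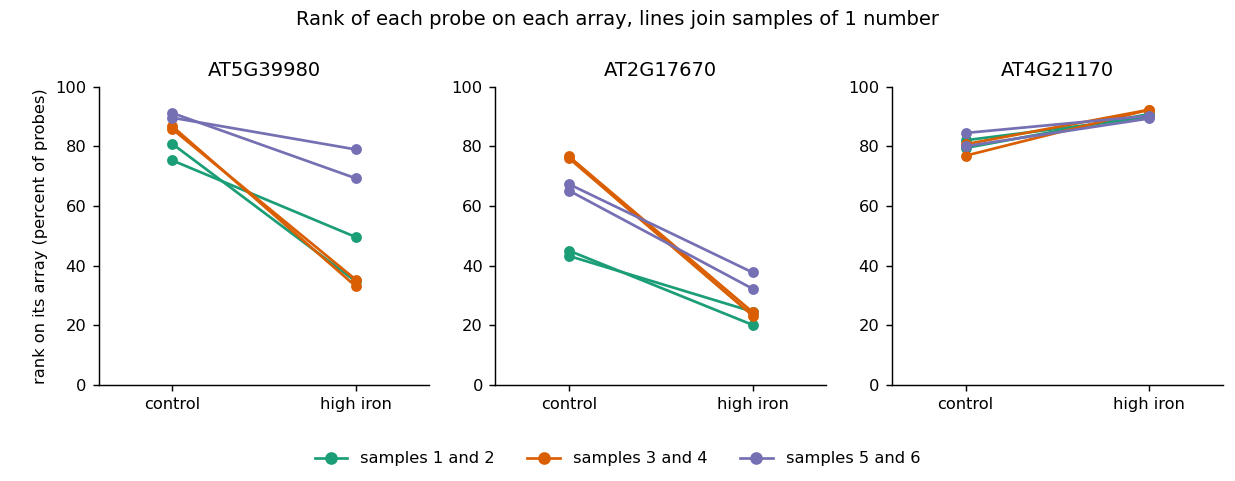
Rank of each gene's probe among the 3439 probes of each array, in percent, with a line joining the control and the high iron sample of the same number and colours for the sets. All 6 lines go down for AT5G39980 and AT2G17670 and up for AT4G21170, with the shallowest falls of AT5G39980 in samples 5 and 6.

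Same-numbered samples of the groups deviated together across probes, with correlations of 0.51 to 0.52 for numbers 1, 2, 5 and 6. For numbers 3 and 4 the correlations were lower, at 0.21 and 0.13. Unlike numbers were not compared across groups, so pairing by number cannot be told from pairing by set. Differences within numbers are also given. For AT5G39980 they ran from -1.67 in number 4 to -0.60 in number 6 on the log2 scale. For AT2G17670 they ran from -1.55 in number 4 to -0.61 in number 2. For AT4G21170 they ran from 0.41 in number 5 to 0.96 in number 4. With the replicate number as a block the SE was 0.16, 0.15 and 0.08 for the 3 genes in this order. Over averages of the sets, with 3 values per group, it was 0.35, 0.28 and 0.10.

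All 3 genes differed most in samples 3 and 4, in whichever direction they differed. AT5G39980 had differences of -1.005, -1.61 and -0.84 in the sets 1 to 3, AT2G17670 had -0.74, -1.54 and -0.83, and AT4G21170 had 0.59, 0.88 and 0.47. High iron samples 3 and 4 were also the arrays with the lowest median intensities (0.352 and 0.353) and the most values of 0 (278 and 271, against 123 to 145 on the other 10 arrays). Their part in the larger differences was not tested. Without samples 3 and 4 of both groups the differences were -0.92, -0.79 and 0.53 for AT5G39980, AT2G17670 and AT4G21170.

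Variation between sets was common on these arrays. Among all probes 35.0% passed limma's F-test of the interaction of group and set (over 12 samples, adjusted over all probes), which rests on the spread inside pairs of samples that may be repeat measurements. For the 3 genes the values by set are given without a test, since the same samples chose them.

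In AT2G17670 the control set means spanned 0.87 on the log2 scale, from samples 1 and 2 at -1.17 to samples 3 and 4 at -0.31, and the high iron set means spanned 0.47. The largest gap inside a control set was 0.06. Which group spanned more depended on the scaling, with 0.81 in control and 0.75 at high iron after median scaling, and 0.65 and 1.09 with deposited values. In AT5G39980 the wider span was at high iron, 1.10 against 0.70 in control, with samples 5 and 6 highest in both groups. AT4G21170 spanned 0.15 in control and 0.26 at high iron, while its largest gaps inside a set were 0.21 and 0.11. The smallest gap inside a control set of AT4G21170 was 0.11, so its control sets differed by about as much as samples inside a set.

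The direction of the 3 differences was the same under the 3 scalings, and their sizes were not. With each array divided by its median the differences were -1.05 (SE 0.28) for AT5G39980, -1.14 (SE 0.20) for AT2G17670 and 1.02 (SE 0.14) for AT4G21170. With the values as deposited they were -1.57 (SE 0.32), -1.66 (SE 0.23) and 0.49 (SE 0.08). The median difference of all probes was 0.00 with quantile normalization, 0.02 with median scaling and -0.40 with deposited values. Relative to the median of all probes in each scaling, AT4G21170 thus stood higher and the other two lower each time. Probes were also split by mean brightness into 10 classes of equal size. In the class of AT4G21170 they had a median difference of -0.01, 0.28 and -0.24 in the 3 scalings. In the class of AT5G39980 it was -0.04, 0.13 and -0.40, and in that of AT2G17670 it was 0.00, -0.03 and -0.55.

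**Figure D3:**
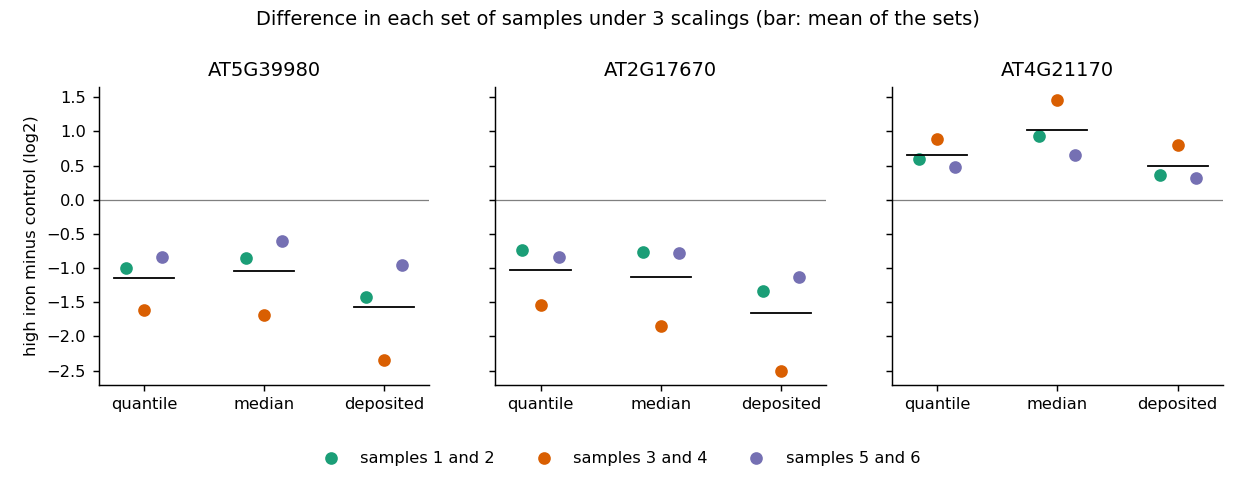
Difference between high iron and control (log2) of each gene in each set of samples, under quantile normalization, median scaling and deposited values, with a bar for the mean of the 3 sets. All points of AT5G39980 and AT2G17670 lie below 0 and all of AT4G21170 above it, and samples 3 and 4 lie farthest from 0 in every panel and scaling.

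The gap between the genes was also measured within arrays, where a constant factor per array cancels. Quantile normalization is not such a factor, so the size of the gap still depends on the scaling. From control to high iron, AT4G21170 changed by 1.80 more than AT5G39980 and by 1.69 more than AT2G17670 on the quantile-normalized log2 scale. The first of these gaps ran from 1.13 to 2.63 over the 6 sample numbers and the second from 1.30 to 2.51. AT5G39980 and AT2G17670 differed in their change by 0.11 on the mean, between -0.18 and 0.45 over the numbers. That gap changes sign between numbers and is smaller than the SE of either change.

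Probes with neighbouring numbers had differences of the same sign as each gene, with 1 exception among 12, and they came nearest to the gene in size for AT2G17670. The labels do not say what a probe number stands for. The 4 probes with the numbers nearest to AT2G17670 had differences of -1.49, -0.97, -1.25 and -1.07, so 3 of the 4 differed more than the gene did. Their medians in the sets 1 to 3 were -0.75, -2.06 and -0.80, against -0.74, -1.54 and -0.83 for the gene. Among all 3439 probes, 0.291% had a median of their 4 neighbours that was as low. For AT5G39980 the neighbours had a median of -0.45, with 3 of 4 lower at high iron and 1 at the floor on all arrays. None of them went past the gene itself, and 6.25% of all probes had a neighbour median as low. Their medians in the sets were -0.38, -0.80 and -0.17, in the same order as the -1.005, -1.61 and -0.84 of AT5G39980. For AT4G21170 the neighbours had a median of 0.40, with 4 of 4 higher and 1 of them, at 0.94, past the gene. As high a neighbour median was found for 8.64% of all probes. The medians of these neighbours in the sets were 0.33, 0.33 and 0.40, against 0.59, 0.88 and 0.47 for AT4G21170. The neighbours differed among themselves. Those at 0.94 (0.96, 1.42 and 0.43 in the sets) and 0.20 (0.23, 0.31 and 0.07) ranked the sets as AT4G21170 did. Those at 0.39 (0.44, 0.35 and 0.38) and 0.40 (0, 0.10 and 1.11) did not.

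On each array a running median, 51 probes wide in the order of probe numbers, was taken of each probe's deviation from its mean over the 12 samples. After this running median was subtracted, AT2G17670 stood at -0.62 (SE 0.15), AT5G39980 at -0.75 (SE 0.17) and AT4G21170 at 0.55 (SE 0.07). This step reduced the first 2 differences by over 1.5 times and turned none of the 3 signs. Against the median of only its 4 nearest probes, AT2G17670 stood at 0.13, so none of its fall was left there. By the same measure AT5G39980 stood at -0.70 and AT4G21170 at 0.25.

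**Figure D4:**
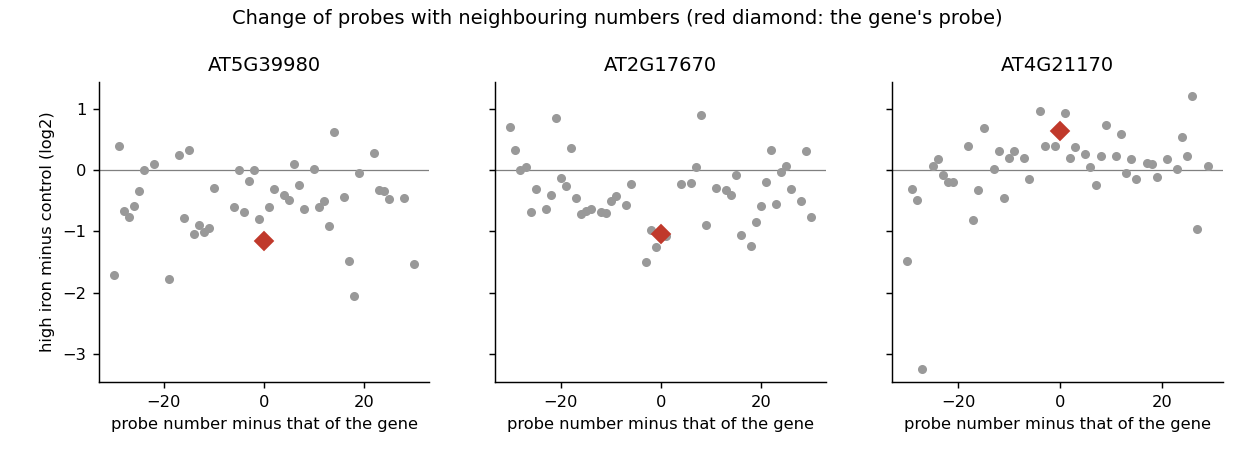
Difference between high iron and control (log2, quantile-normalized) of each probe within 30 probe numbers of each gene, with the gene's own probe as a red diamond. The probes next to AT2G17670 lie at its level, between -1.49 and -0.97, while those next to AT5G39980 lie between it and 0.

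Patterns over the 12 samples were compared with those of the other 688 genes with a probe of their own, by the root mean square distance between log2 values centred on each gene's mean. The nearest genes to AT5G39980 were AT5G35100 (0.22), AT5G40470 (0.23) and AT5G63490 (0.23), against a median distance of 0.74 over all 688. The probe of AT5G63490 lies 13 numbers from that of AT5G39980, inside the stretch shown in the plot of neighbouring probes, and those of the other named genes lie at least 289 numbers away. Nearest to AT2G17670 were AT5G19750 (0.18), AT5G40470 (0.20) and AT1G03660 (0.24), with a median of 0.65. AT5G40470, which differed by -1.10 between the groups, was near to both genes that were lower. The group difference enters these distances, so nearness to both is partly built in. Nearest to AT4G21170 were AT4G29890 (0.10), AT4G13220 (0.10) and AT2G34050 (0.11), with a median of 0.43. These genes differed by 0.72, 0.63 and 0.66 between the groups, which their likeness to AT4G21170 builds in.

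Other genes of the pentatricopeptide repeat family did not share 1 direction. Of 18 further family genes with a probe of their own, 2 rose, 4 fell and 12 did not pass in limma over 12 samples, which is 33.3% passing against 33.4% of all probes. Their median difference was -0.16, against 0.00 over all probes, with 12 below and 6 above 0. Family membership was assigned from general knowledge of the loci, since the annotation holds the family name for none of them. Of the 18, 3 had groups without overlap, against 18.1% of all probes.

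The genes that rose were AT3G13150, by 0.50 (SE 0.15, adjusted p = 0.0277 in limma), and AT3G26630, by 0.36 (SE 0.09, adjusted p = 0.00729). AT3G13150 went from 0.70 ± 0.30 to 1.20 ± 0.27 on the log2 scale (SD, n = 6). OTP85, needed for editing of a plastid transcript of the NDH complex, had a value of 0.25 (SE 0.10), AT4G04370 one of 0.13 (SE 0.14) and OTP70, which serves transcript processing in plastids, one of 0.05 (SE 0.09). These 3 did not pass, and with deposited values they stood at -0.38, -0.28 and -0.10, where OTP85 passed in the other direction (adjusted p = 0.0164 in limma). After median scaling the same 3 stood at 0.15, 0.25 and 0.43, where OTP70 passed as higher (adjusted p = 0.00235 in limma).

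The family genes that fell were AT1G31790, at -0.72 (SE 0.10, adjusted p = 0.000328 in limma), AT2G46050, at -0.66 (SE 0.15, adjusted p = 0.00544), AT3G49740, at -0.48 (SE 0.15, adjusted p = 0.0259), and AT5G15280, at -0.45 (SE 0.10, adjusted p = 0.0045). The last lies outside the 5 largest differences and was named after its values were seen. It went from -0.01 ± 0.13 to -0.47 ± 0.21 without overlap, and did not pass after median scaling (-0.24, adjusted p = 0.147 in limma) or with the running median over probe numbers removed (-0.22, 0.0954). Nor did AT3G49740 pass after median scaling (-0.27, adjusted p = 0.199 in limma) or with that running median removed (-0.32, 0.0837). AT1G31790 went from -0.32 ± 0.13 to -1.04 ± 0.20 without overlap. AT3G51320 had a value of -0.62 (SE 0.23, adjusted p = 0.0568) with 4 of its 12 values at the floor, and AT2G30100 one of -0.49 (SE 0.18, adjusted p = 0.0555). With the replicate number as a block AT3G51320 (adjusted p = 0.00118 in limma) and AT2G30100 (0.0362) passed and AT3G13150 (0.0993) did not, where 40.5% of all probes passed.

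These counts rest on the samples of a set being replicates. Over the 6 averages of the sets 0 of the 18 genes passed in limma, where 2.38% of all probes did. AT1G31790 came nearest (adjusted p = 0.0611 in limma), and 4 of the 18 had an unadjusted p under 0.05 there. With the set as a random block, AT1G31790 was the 1 that passed (adjusted p = 0.0211 in limma), where 14.3% of all probes did. After median scaling 5 of the 18 rose and 3 fell, and with deposited values 2 rose and 11 fell. All probes gave 24.7% higher and 12.7% lower after median scaling, and 8.46% higher and 46.6% lower with deposited values. How the 18 genes split by direction thus depended on the scaling.

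Leaving out 1 sample at a time ended 2 of the 6 calls. AT3G49740 did not pass without control sample 3, 5 or 6 or high iron sample 1, 2 or 3 (differences from -0.47 to -0.40). AT3G13150 did not pass without control sample 5 or 6 or high iron sample 1, 5 or 6 (0.42 to 0.48). In the other direction, OTP85 passed without control sample 5 (0.30), AT2G30100 without control sample 1 or high iron sample 5 or 6 (-0.56 to -0.55), and AT3G51320 without control sample 1 or high iron sample 3 or 4 (-0.75 to -0.71). Without samples 1 and 2 of both groups 3 of the 18 passed, where 886 of all 3439 probes did. Without samples 5 and 6 of both groups AT3G13150 stood at 0.17 and AT3G26630 at 0.21, and neither passed.

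Among 10 other genes for organelle RNA, 3 rose, 2 fell and 5 did not pass in limma over 12 samples, which is 50% passing against 33.4% of all probes. They comprise 7 genes of the mitochondrial transcription termination factor family, which bind organelle nucleic acids, and 3 plastid RNA proteins, and their median difference was -0.03. AT5G55580, annotated as mTERF9, rose by 0.93 (SE 0.14, adjusted p = 0.000445), AT1G62150 by 0.88 (SE 0.09, adjusted p = 5.02e-05) and AT3G46950 by 0.70 (SE 0.15, adjusted p = 0.00374). AT3G18870 fell by 1.23 (SE 0.09, adjusted p = 6.94e-06), and AT1G61990 fell by 0.37 (SE 0.10, adjusted p = 0.0165). Over the 6 averages AT1G62150 (adjusted p = 0.0316 in limma) and AT3G18870 (0.0266) passed and the others did not. AT3G46950 did not pass with deposited values (0.25), nor did AT1G61990 after median scaling (-0.15).

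The genes of this list that did not pass were AT1G62010 at -0.24 (SE 0.17), AT1G79220 at -0.05 (SE 0.05), PAC at -0.24 (SE 0.27) and AT1G70200 at 0.41 (SE 0.19). PAC (PALE CRESS) is a plastid protein needed for chloroplast development. Blocked by replicate number, AT1G70200 passed (adjusted p = 0.0104 in limma), as it did without high iron sample 1 (0.57). AT1G12800 lay at the floor on all 12 arrays, so its values give only a bound. After median scaling AT1G79220 stood at 0.30. With deposited values AT1G62010 (-0.70, adjusted p = 0.0323 in limma), AT1G79220 (-0.22, 0.0172) and PAC (-0.80, 0.0134) passed as lower, where 46.6% of all probes did.

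**Figure D5:**
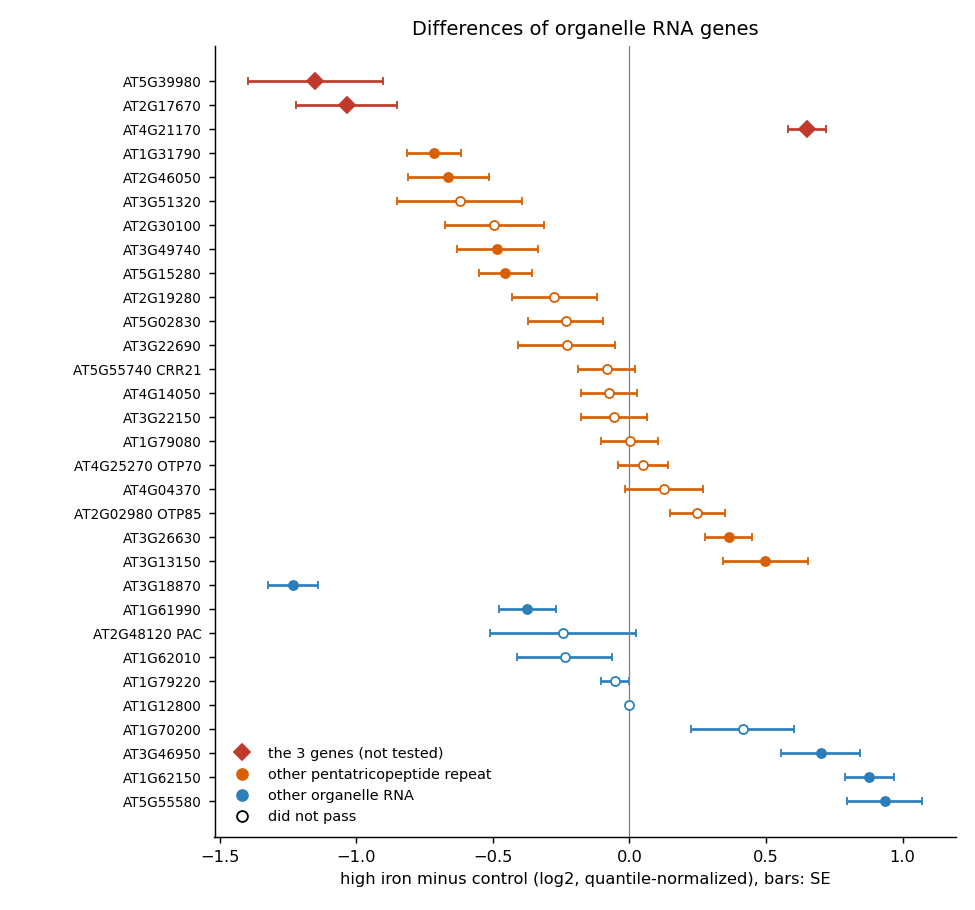
Difference between high iron and control (log2, quantile-normalized, bars SE) of the 3 genes as diamonds, of 18 other pentatricopeptide repeat genes and of 10 other organelle RNA genes, where filled circles passed in limma over 12 samples and open circles did not. The 18 family genes run from -0.72 to 0.50, between AT2G17670 and AT4G21170.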

How the data were processed

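The authors deposited 1 intensity per probe and sample on a linear scale, per the file headers and values; the sources used here do not give the scanning, background correction or scaling, so scale and centring are unknown. Groups came from the source names and replicate numbers from the titles. Of 3439 probes, 692 had 1 gene, 870 several and 1877 none in the platform annotation, and 690 of the 692 matched the TAIR10.1 RefSeq table. A gene with several probes was represented by the brightest. No positions are given, as no build is named.

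Intensities were quantile normalized, floored at the 5th percentile of positive values (0.106) and log2-transformed, so that changes of dim probes are understated. Probes were tested two-sided with limma 3.58.1 in R 4.3.3 (lmFit, eBayes with a mean trend) and Benjamini-Hochberg adjustment over all probes, threshold 0.05. The set as a random block used duplicateCorrelation (statmod 1.5.0, correlation 0.774). The fits were run on simulated data with independent samples and no set effect. That simulation therefore does not show how the fits behave with the correlation inside sets seen here. Alternatives changed the scaling, floor, filter, blocks, weights, probe-number trend and samples.

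An interaction test planned for the 3 genes is not reported, since it uses the samples that chose them. The members, lists and tests were chosen with earlier results of these data known, and family loci were added to the lists after the annotation was seen. Of the loci listed at first, 0 of 11 family loci, 0 of 31 other organelle RNA loci and 0 of 5 root loci had a probe of their own. The 6 green tissue loci all had one, since they were taken from genes already known to be on the array. Named were the 3 genes, the 5 largest differences each way among other family genes, all organelle RNA genes with a probe, and the 3 nearest patterns per gene. Same-numbered samples correlated across groups at 0.52, 0.51, 0.21, 0.13, 0.52 and 0.51 for numbers 1 to 6, a pairing that the labels do not state. Precision is limited by the number of arrays.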

Additional observations from a re-analysis of the deposited data

Results flagged for a closer look

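AT1G70200, one of the plastid RNA proteins, had a sample apart from the others in both groups. Control sample 1 lay at -1.34 on the log2 scale, below the other 5 controls at -0.81 to -0.67, a gap that makes up 0.801 of the range of the 6. High iron sample 1 lay at -1.21, below the other 5 at -0.48 to -0.05, a gap of 0.633 on this measure. These were 2 of 62 groups of values examined, and by chance about 1 group in 20 has such a sample.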

How the results depend on the processing

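The differences of the 3 genes kept their sign in all alternative fits run. Less the median of its 4 nearest probes, which was not among these fits, AT2G17670 stood at 0.13. After median scaling AT4G21170 stood at 1.02, and with deposited values AT2G17670 stood at -1.66 and AT4G21170 at 0.49. With the running median over probe numbers removed AT2G17670 stood at -0.62. Leaving out 1 sample gave -1.31 to -1.05 for AT5G39980, -1.14 to -0.96 for AT2G17670 and 0.62 to 0.69 for AT4G21170. The probes that passed numbered 1149, and 1000 to 1172 with 1 sample left out, 1892 with deposited values, 491 with the set as a random block, 82 over the 6 averages and 1 with the replicate block over these averages. Without samples 1 and 2 of both groups 886 probes passed. For the 18 family genes the count was 6, with 4 to 8 when leaving out 1 sample, 13 with deposited values, 1 with the random block, 0 over the averages with or without the replicate block, and 3 without samples 1 and 2 of both groups. For the 10 organelle RNA genes it was 5, with 5 to 6 when leaving out 1 sample, 3 with the random block, 2 over the averages and 0 with the replicate block over them. With the replicate block over all 12 samples 1392 probes, 7 family genes and 6 organelle RNA genes passed. The interaction of group and set passed for 1203 probes, and for 1197 to 1467 in its alternatives. Signs turned with median scaling for AT2G30100 (0.092) and AT1G79220 (0.30), and with deposited values for OTP70 (-0.10), AT4G04370 (-0.28) and OTP85 (-0.38). They also turned with array weights for AT4G04370 (-0.063) and AT1G62010 (0.026). With the running median removed OTP70 stood at -0.12, without samples 1 and 2 at -0.035, and without samples 3 and 4 AT4G04370 stood at -0.024. Where no cause is given above, the cause was not tested. Dim probes near the floor limit what can be seen.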
